A study of Homo sapiens with 35 samples.

Results

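The BCL2 family of apoptosis regulators was followed in HEK293T cells, a cell line established from human embryonic kidney, after depletion of the Integrator subunit INTS13 or of 8 transcription regulators, and after removal of glucose. The members were the 10 genes BBC3, PMAIP1, HRK, BCL2L11, BMF, BIK, BAX, BAK1, MCL1 and BCL2L1, chosen by gene name from the 60665 genes of a table of raw read counts. All 10 were present, and all 10 were among the 19275 genes with enough counts to be tested. The count table came from total RNA sequencing of 35 libraries, each from cells given 5 nM of an siPOOL (a mixture of many siRNAs against 1 gene) in 2 transfections and collected at 72 h.

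The libraries formed 15 groups in 3 sets. In the second set, depletion was of INTS13 (n = 2), HDGF (n = 2) or ZNF655 (n = 2), and the controls were 4 libraries with a control siPOOL. The same set held cells kept without glucose for the last 24 h, with siPOOLs against INTS13 (n = 2) or HDGF (n = 2) or with the control siPOOL (n = 4). In the third set, ZMYND8 was depleted (n = 2) and set against 2 controls labelled for ZMYND8. In the first set, TSPYL2, ZEB1, ZNF608, ZNF609 or ZNF687 was depleted (n = 2 each) and set against 3 control libraries. The labels give ZNF655 no control of its own, and it was set against the 4 fed controls of the second set. Nothing in the labels said that replicates came from separate cultures, so p-values measure only the spread between these libraries, which may be technical. HEK293T cells carry the adenovirus E1A and E1B genes and the SV40 large T antigen. Large T and a product of E1B bind p53, and E1B also encodes a viral relative of BCL2. All groups share this.

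The BCL2 family sets the threshold for the mitochondrial pathway of apoptosis. Pro-survival members such as MCL1 and BCL2L1 (BCL-XL) hold the pore-forming members BAX and BAK1 in check, and BH3-only members such as BBC3 (PUMA), PMAIP1 (NOXA), HRK, BCL2L11 (BIM), BMF and BIK bind the pro-survival proteins or act on BAX and BAK1 directly. Once BAX or BAK1 opens the outer mitochondrial membrane, cytochrome c is released and caspases are activated. Many BH3-only genes are switched on in transcription by particular stresses, among them DNA damage through p53, growth factor withdrawal through FOXO factors and JNK, and amino acid or endoplasmic reticulum stress through ATF4 and DDIT3 (CHOP), whereas MCL1 is a short-lived protein kept up by continuous synthesis.

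The counts are per gene, and positions and identifiers are those of the deposited table, on hg38. Of the BH3-only genes, BBC3 (ENSG00000105327.18) lies at chr19:47220822-47232766 on the minus strand, PMAIP1 (ENSG00000141682.12) at chr18:59899996-59904305 on the plus strand and HRK (ENSG00000135116.9) at chr12:116856144-116881441 on the minus strand. BCL2L11 (ENSG00000153094.24) lies at chr2:111119378-111168445 on the plus strand, BMF (ENSG00000104081.14) at chr15:40087890-40108892 on the minus strand and BIK (ENSG00000100290.3) at chr22:43110750-43129712 on the plus strand. Of the pore-forming genes, BAX (ENSG00000087088.20) lies at chr19:48954815-48961798 on the plus strand and BAK1 (ENSG00000030110.13) at chr6:33572547-33580293 on the minus strand. Of the pro-survival genes, MCL1 (ENSG00000143384.13) lies at chr1:150574551-150579738 and BCL2L1 (ENSG00000171552.13) at chr20:31664452-31723989, both on the minus strand. Where a member overlaps another gene, reads could be shared, since the sources used here do not give the strand setting of the counting. The overlapping genes had few reads: the antisense MIR4435-2HG had a median of 111 counts per library against 981 for BCL2L11, ADAMTSL4-AS1 41 against 7068 for MCL1, ABALON 7 against 611 for BCL2L1 and GGNBP1 3 against 961 for BAK1.

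RefSeq promoters (windows of 300 bases that span the annotated start, GRCh38.p14) were matched for 8 of the 10 members, with 10 promoters in all; MCL1 and BIK had no entry. Those of HRK, BBC3 and BAX are shown because these 3 genes were the members that rose with glucose removal in control cells. They are written 5′ to 3′ along the gene, with capitals marking a match on either strand to TGATGNAA, the core of the amino acid response element to which ATF4 complexes bind, or to CACGTG, the E-box. Their positions are chr12:116881392-116881691, minus strand, for HRK, chr19:47232618-47232917, minus strand, for BBC3, and chr19:48954625-48954924, plus strand, for BAX.
HRK promoter: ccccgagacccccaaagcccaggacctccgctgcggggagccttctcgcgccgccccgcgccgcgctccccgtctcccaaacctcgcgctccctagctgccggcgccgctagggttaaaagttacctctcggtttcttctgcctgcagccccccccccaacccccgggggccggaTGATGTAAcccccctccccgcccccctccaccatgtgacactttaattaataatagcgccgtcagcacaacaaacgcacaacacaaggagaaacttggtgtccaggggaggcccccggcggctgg
BBC3 promoter: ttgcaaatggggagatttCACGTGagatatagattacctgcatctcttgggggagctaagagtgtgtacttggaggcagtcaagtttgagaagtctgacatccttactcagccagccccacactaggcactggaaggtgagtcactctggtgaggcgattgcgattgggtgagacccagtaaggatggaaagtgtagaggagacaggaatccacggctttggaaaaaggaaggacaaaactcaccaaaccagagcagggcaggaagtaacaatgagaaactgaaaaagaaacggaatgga
BAX promoter: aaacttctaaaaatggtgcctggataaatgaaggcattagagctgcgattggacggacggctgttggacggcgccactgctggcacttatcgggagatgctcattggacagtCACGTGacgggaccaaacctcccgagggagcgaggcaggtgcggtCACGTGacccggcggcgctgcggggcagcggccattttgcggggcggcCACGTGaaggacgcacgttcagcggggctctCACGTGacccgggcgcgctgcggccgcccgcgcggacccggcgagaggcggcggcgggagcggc
The first base of the HRK match lay at position -75 from the start. The BBC3 match lay at -232, and the BAX promoter held 4 matches, at -138, -93, -45 and -14. CACGTG reads the same on both strands. Among 35116 RefSeq promoters of the same length, 3.62% held TGATGNAA and 7.26% held CACGTG. Of the other motifs searched, the forkhead motif GTAAACA (3.42% of promoters) was found in BCL2L11 at -223, and the p53 consensus decamer (6.63%) in BAK1 at -73. None of the 4 motifs overlapped another in these promoters. A match describes the letters of the window and is not a measured binding site.

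Libraries held between 16.8 M and 50.8 M counted reads (median 25.6 M). The transcripts of each depleted gene stood at 8.36% (HDGF) to 56.1% (ZNF608) of their controls, and in starved cells at 18.6% for INTS13 and 10.2% for HDGF. The edgeR test for ZMYND8 missed the threshold with any 1 of its 4 libraries left out (adjusted p up to 0.156). Those for TSPYL2 and ZNF609 missed it without either depleted library (up to 0.115 and 0.159). Of markers known for this line, VIM (median 490 CPM, counts scaled to the library's total), CDH2 (105 CPM), KRT18 (53.8 CPM), NEFM (20.2 CPM) and GATA2 (19.97 CPM) were present, NES (4.43 CPM) was low, and the renal transcription factors LHX1 (1.83 CPM) and PAX2 (0.852 CPM) were lower still. CD3E was at 0 in every library, PTPRC, CDH5 and COL1A2 had a median of 0 CPM, and COL1A1 had 4.31 CPM. In the first set, ribosomal protein genes took 9.91% to 15.8% of reads in the libraries numbered 1 and 7.11% to 9.67% in those numbered 2.

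Compared per length, as CPM per kilobase of exon (CPM/kb), MCL1, BAX and PMAIP1 were the most abundant members in the control libraries and BIK the least. In the fed controls of the second set (n = 4), MCL1 stood at 69.4 ± 4.07 CPM/kb, PMAIP1 at 38.8 ± 6.08, BAX at 25.4 ± 0.602 and BAK1 at 15.5 ± 0.732 (SD). BCL2L11 followed at 7.33 ± 0.311 CPM/kb, BCL2L1 at 6.87 ± 0.439 and BBC3 at 5.01 ± 0.646. HRK at 2.19 ± 0.166, BMF at 1.89 ± 0.114 and BIK at 0.356 ± 0.140 CPM/kb were the lowest. BCL2L11 overlapped BCL2L1, and HRK overlapped BMF, in the ranges of their 4 libraries; no other neighbours in this order did. The order was not the same in each set of controls: in the first set PMAIP1, at 55.3 ± 11.3 CPM/kb, overlapped MCL1 at 48.7 ± 0.668 (SD, n = 3). BCL2L11 had 48.8 CPM in the controls of the second set, 30.7 CPM in those labelled for ZMYND8 and 22.8 CPM in those of the first set. Its values were therefore compared within a set, except where the controls labelled for ZMYND8 served as alternative controls. BIK had between 5 and 36 reads per library (median 13), and the SE of its log2 fold changes, 0.32 to 0.51 in the 14 comparisons below, was the largest of any member.

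**Figure D1:**
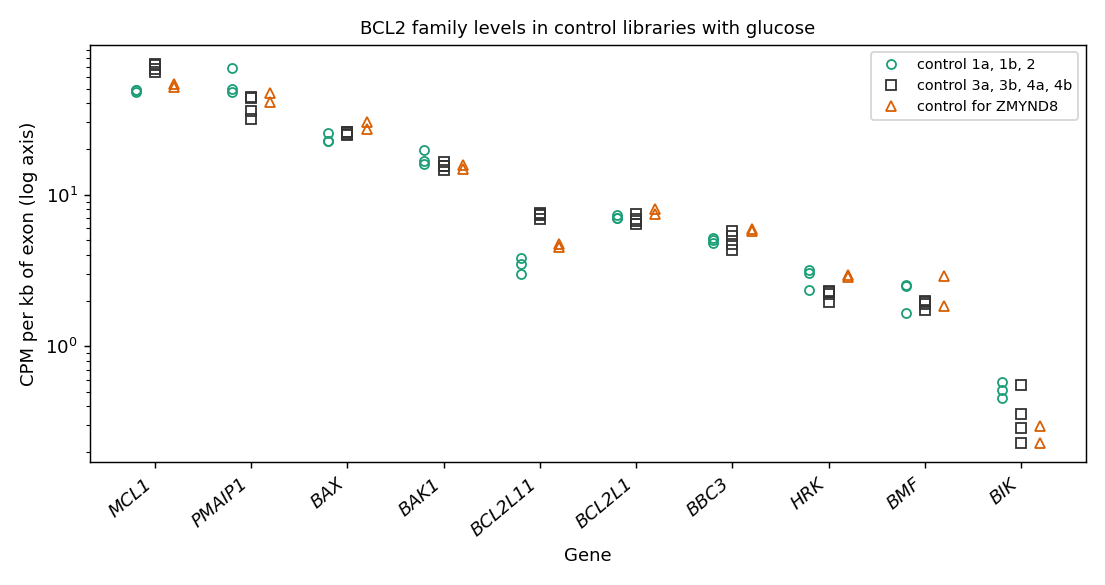
Level of each of the 10 members in the control libraries, as CPM per kilobase of exon on a log axis. Points are single libraries of the first set (3), the second set (4, fed) and the controls labelled for ZMYND8 (2). MCL1 and PMAIP1 lie at the top, and BIK, read from 5 to 36 counts per library, at the bottom.

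Folds and tests below come from edgeR's quasi-likelihood test in 1 fit of all 35 libraries, and a gene was called where the p-value adjusted by Benjamini-Hochberg over all 19275 genes was under 0.05. Over the 14 comparisons of a depletion or of starvation with its own reference, HRK was called 6 times, 3 times higher and 3 times lower. BAX was called 5 times, each time higher, BBC3 3 times higher, MCL1 3 times lower, PMAIP1 2 times higher and BAK1 1 time lower. BCL2L11, BMF, BIK and BCL2L1 were called in none of the 14 with this test. Several comparisons share their control libraries, so they are not independent of each other. The fit held no block for the replicate number, though first-set libraries of the same number deviated together. That spread entered the estimate shared by all sets. Members not called here are therefore to be read beside the fits with a block and of each set alone. In bulk libraries, a change in the make-up of the cells and a change in the RNA of each cell cannot be told apart.

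**Figure D2:**
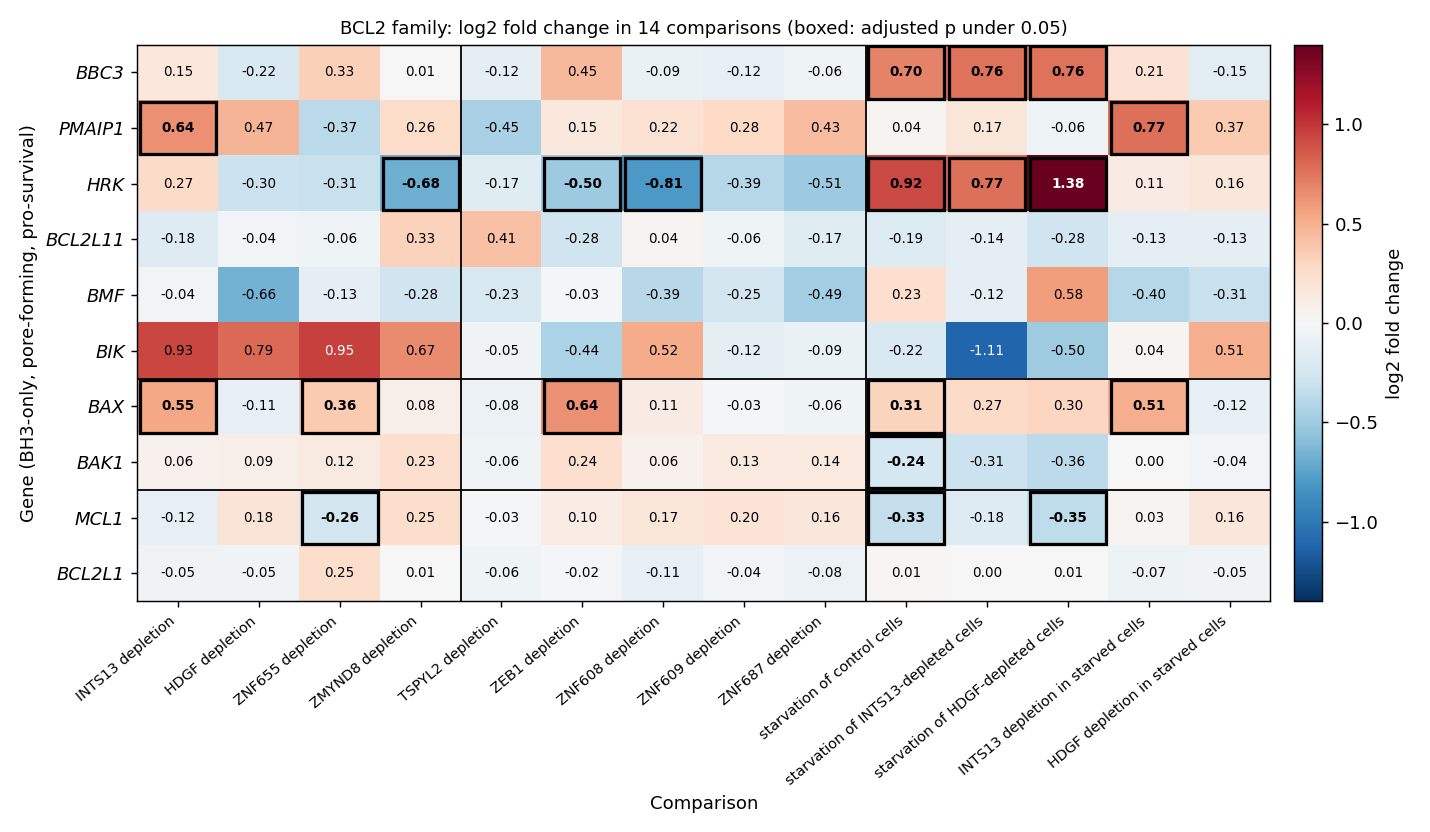
Log2 fold change of each member (rows, by role) in 14 comparisons (columns), with boxes around the 20 calls at an adjusted p under 0.05. The HRK row holds both the largest rise, 1.38 with starvation of HDGF-depleted cells, and the falls with depletion of ZNF608, ZMYND8 and ZEB1; the BCL2L1 row holds no call.

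Glucose removal raised HRK and BBC3 and lowered MCL1 in control cells, with smaller changes in both pore-forming genes. In control siPOOL cells, 3 members rose and 2 fell of 10, in a comparison in which 16.8% of all tested genes were called, 8.77% higher and 8.05% lower; the median log2 fold change was 0.03 over the members and 0.01 over all genes. HRK, a BH3-only gene best known in neurons deprived of growth factor, had 30.7, 28.2, 27.6 and 27.0 CPM in the 4 starved control libraries, against 15.2, 15.7, 15.7 and 13.3 CPM in the 4 fed ones. Every starved library lay far above every fed one. HRK rose 1.89-fold (log2 fold change 0.92 ± 0.09 SE, adjusted p = 3.5e-07). BBC3, a BH3-only gene able to bind all pro-survival members, had 25.8, 26.8, 24.7 and 26.3 CPM in starved control libraries, against 18.3, 16.9, 13.6 and 15.01 CPM in fed ones. The groups did not overlap, and the fed libraries varied more among themselves than the starved ones. BBC3 rose 1.62-fold (0.70 ± 0.11, adjusted p = 6.31e-05).

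Among the pore-forming genes, BAX had 78.8, 89.5, 71.7 and 85.9 CPM in starved control libraries, against 67.2, 64.7, 66.8 and 64.0 CPM in fed ones, a rise of 0.31 ± 0.08 on the log2 scale (adjusted p = 0.0111). BAK1 moved the other way, with 30.0, 29.1, 25.2 and 31.4 CPM in starved control libraries, against 34.1, 36.3, 34.1 and 32.3 CPM in fed ones. It fell by 0.24 ± 0.08 on the log2 scale (adjusted p = 0.0417), and for both genes the nearest libraries of the 2 groups were close. Of the pro-survival genes, MCL1 had 237.4, 244.0, 246.9 and 237.5 CPM in starved control libraries, against 283.0, 320.6, 316.0 and 294.5 CPM in fed ones. MCL1 fell by 0.33 ± 0.07 on the log2 scale (adjusted p = 0.000832), without overlap. BCL2L1, the other pro-survival member, averaged 23.0 ± 1.14 CPM in starved and 22.8 ± 1.46 CPM in fed controls (SD, n = 4 each), with a log2 difference of 0.01 ± 0.08 (SE). PMAIP1, at 87.2 ± 5.25 CPM in starved and 84.8 ± 13.3 CPM in fed controls, BCL2L11, at 42.7 ± 3.19 and 48.8 ± 2.07 CPM, BMF, at 12.1 ± 0.744 and 10.3 ± 0.620 CPM, and BIK did not pass the test. With each of the 8 libraries left out in turn, the calls of HRK, BBC3 and MCL1 held, that of BAX was lost without starved control 3b (adjusted p = 0.052) and that of BAK1 in 6 of 8 cases (0.0571 to 0.169). Ribosomal protein genes took 7.41% to 7.88% of reads in starved and 6.13% to 6.73% in fed control libraries, and whether this bears on the member values was not tested.

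Starvation also raised HRK and BBC3 in cells depleted of INTS13 or HDGF. In INTS13-depleted cells 2 members rose and 0 fell, with 1.32% of all genes called (0.856% higher and 0.467% lower). In HDGF-depleted cells 2 rose and 1 fell, with 3.54% called (2.09% higher and 1.45% lower). HRK had 28.6 and 32.7 CPM in starved INTS13-depleted libraries, against 17.8 and 18.2 CPM in fed ones (0.77 ± 0.13, adjusted p = 0.00369). In HDGF-depleted cells HRK had 31.0 and 32.3 CPM without glucose, against 12.1 and 12.1 CPM with it. This was a 2.61-fold rise (1.38 ± 0.14, adjusted p = 2.99e-06), with the fed HDGF-depleted libraries below every fed control and the starved ones just above every starved control. BBC3 had 27.3 and 32.4 CPM in starved INTS13-depleted libraries, against 17.0 and 18.4 CPM in fed ones (0.76 ± 0.15, adjusted p = 0.0114). It had 24.5 and 22.0 CPM in starved HDGF-depleted libraries, against 11.8 and 15.8 CPM in fed ones (0.76 ± 0.16, adjusted p = 0.00586). No group of either pair overlapped the other. BMF had 9.03 and 10.6 CPM in starved HDGF-depleted libraries, against 6.46 and 6.56 CPM in fed ones. It did not pass (0.58 ± 0.23, adjusted p = 0.185). BMF passed there with the replicate block over all libraries (0.0472) and when only the second set was fitted (0.00382). Those fits called 1807 and 3170 genes, against 683 in the full fit.

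MCL1 had 268.6 and 271.2 CPM in starved HDGF-depleted libraries, against 337.2 and 352.2 CPM in fed ones, and fell by 0.35 ± 0.09 on the log2 scale (adjusted p = 0.0322). In INTS13-depleted cells it had 246.9 and 247.5 CPM without glucose, against 270.6 and 288.3 CPM with it, which did not pass the test (-0.18 ± 0.09, adjusted p = 0.456). BAX and BAK1 did not pass in either depletion by the main test: BAX differed by 0.27 ± 0.12 in INTS13-depleted and 0.30 ± 0.12 in HDGF-depleted cells, and BAK1 by -0.31 ± 0.12 and -0.36 ± 0.12. When only the second set was fitted, BAX (adjusted p = 0.0170 and 0.00919) and BAK1 (0.0353 and 0.00916) passed in both. Those comparisons called 2371 genes (255 in the full fit) and 3170 genes (683). BAK1 in HDGF-depleted cells also passed with DESeq2's test (0.0499) and the block over all libraries (0.0365). The difference in the starvation response itself was tested as an interaction, and no member passed for INTS13 (0.0156% of genes called; 0 members at an unadjusted p under 0.05) or for HDGF (0% called; 1 member at an unadjusted p under 0.05). That member was HRK, whose response was 0.46 ± 0.16 larger on the log2 scale in HDGF-depleted than in control cells (adjusted p = 0.922). With 1 library left out, HRK in HDGF-depleted cells kept its call in 4 of 4 cases. The HRK and BBC3 calls in INTS13-depleted cells were lost without fed library 3 or 4 or starved library 4 (adjusted p 0.0556 to 0.21), that of BBC3 in HDGF-depleted cells without fed library 3 (0.182) or starved library 3 (0.0876), and that of MCL1 without any one of the 4 (0.13 to 0.229).

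**Figure D3:**
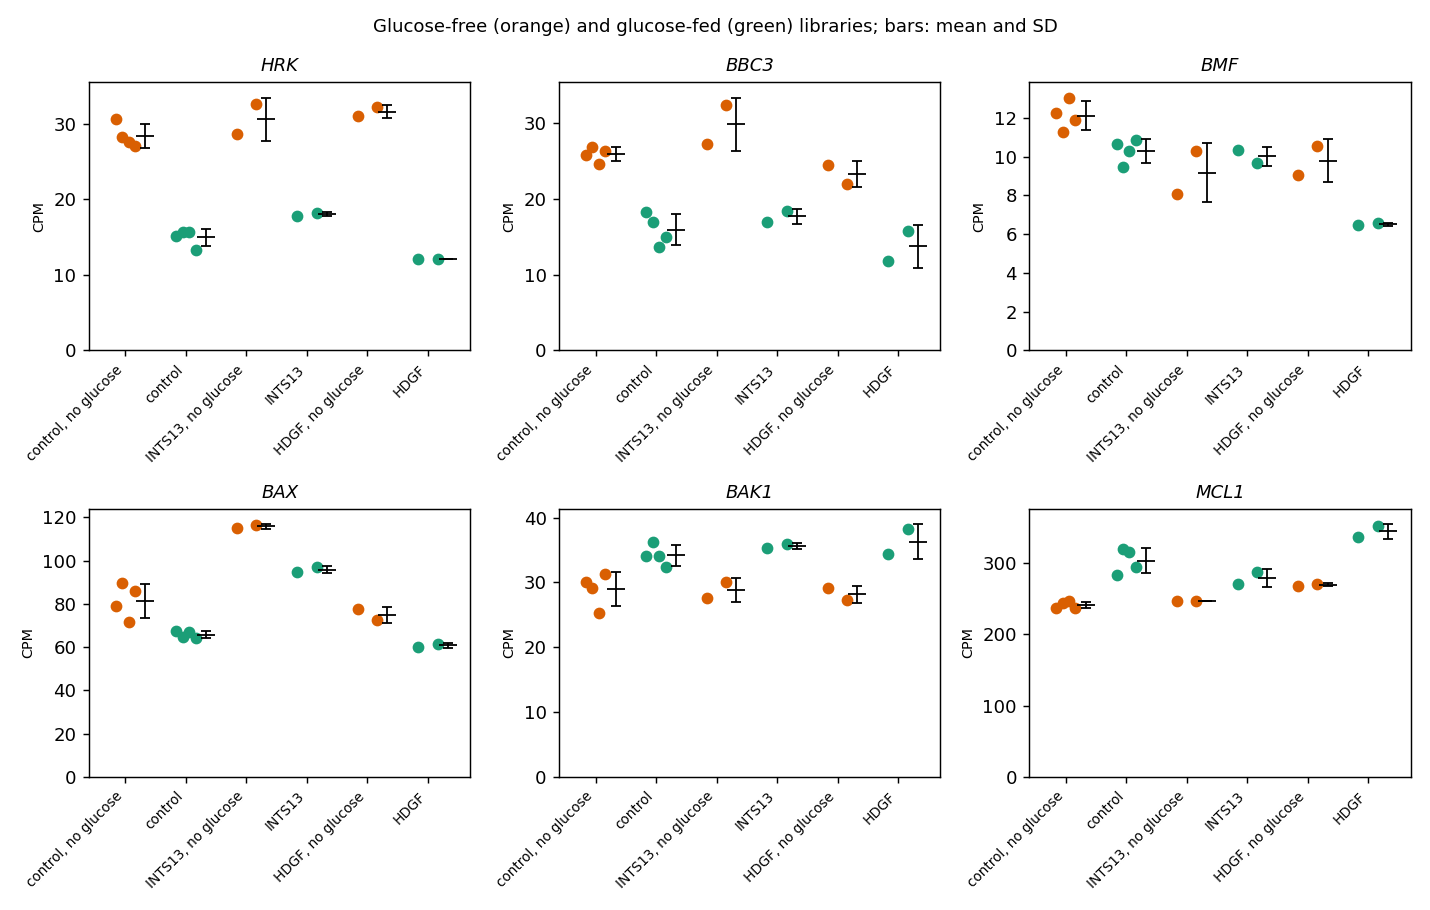
CPM of HRK, BBC3, BMF, BAX, BAK1 and MCL1 per library (points) with the group mean and SD (bars) in cells without glucose (orange) and with glucose (green), for the control, INTS13 and HDGF siPOOLs. The starved control libraries of HRK, 27.0 to 30.7 CPM, lie above the fed ones, 13.3 to 15.7 CPM, and those of MCL1, 237.4 to 246.9 CPM, below the fed ones, 283.0 to 320.6 CPM.

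INTS13 depletion raised BAX and PMAIP1, in fed cells and again in starved cells. In fed cells 2 members rose and 0 fell, with 12.8% of all genes called (6.53% higher and 6.23% lower) and 4 members at an unadjusted p under 0.05; the median log2 fold change was 0.10 over the members and 0.01 over all genes. BAX, the pore-forming member that p53 can induce, had 94.8 and 97.0 CPM in INTS13-depleted libraries, against 67.2, 64.7, 66.8 and 64.0 CPM in controls. The lowest depleted library stood well above the highest control, and BAX rose 1.46-fold (0.55 ± 0.10, adjusted p = 0.000479). PMAIP1, a BH3-only gene whose product binds MCL1, had 125.0 and 139.4 CPM in INTS13-depleted libraries, against 78.5, 94.6, 97.0 and 69.1 CPM in controls. The controls of PMAIP1 spread widely below both depleted libraries, and the 1.56-fold rise was near the threshold (0.64 ± 0.21, adjusted p = 0.0455). Of the other BH3-only genes, HRK had 17.8 and 18.2 CPM in INTS13-depleted libraries, above the 4 controls, and did not pass (0.27 ± 0.12, adjusted p = 0.135). BIK, with 22 and 13 reads in INTS13-depleted libraries, against 10, 7, 5 and 13 in controls, did not pass (0.93 ± 0.36, adjusted p = 0.0861), nor did BBC3, BCL2L11 or BMF. BAK1, MCL1 and BCL2L1 did not pass, with log2 differences of 0.06 ± 0.10, -0.12 ± 0.08 and -0.05 ± 0.09.

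In starved cells, INTS13 depletion again gave 2 members higher and 0 lower, with 3.86% of genes called (2.32% higher and 1.54% lower). BAX had 115.1 and 116.7 CPM in starved INTS13-depleted libraries, against 78.8, 89.5, 71.7 and 85.9 CPM in starved controls (0.51 ± 0.10, adjusted p = 0.00299). PMAIP1 had 160.0 and 137.2 CPM in starved INTS13-depleted libraries, against 87.0, 94.7, 82.6 and 84.7 CPM in starved controls (0.77 ± 0.21, adjusted p = 0.0383). Neither gene overlapped between the groups, and the starved INTS13-depleted libraries held the highest BAX values of all 35. BAX in fed cells kept its call with each of 6 libraries left out. PMAIP1 in fed cells was called only with control 4a left out (adjusted p up to 0.304 otherwise), PMAIP1 in starved cells was lost in 6 of 6 cases (0.0538 to 0.426), and BAX in starved cells was lost without either depleted library (0.0713 and 0.0574). Against the controls labelled for ZMYND8, PMAIP1 in fed cells differed by 0.46 (adjusted p = 0.235) and MCL1 by 0.29 with the opposite sign.

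HDGF depletion changed no member by the main test, with 4.49% of all genes called and 5 members at an unadjusted p under 0.05. The nearest to the threshold was BMF, a BH3-only gene whose product is held at the dynein light chain DYNLL2. BMF had 6.46 and 6.56 CPM in HDGF-depleted libraries, against 10.7, 9.45, 10.3 and 10.9 CPM in controls. Both depleted libraries lay well below the 4 controls, and the difference was -0.66 ± 0.20 on the log2 scale (adjusted p = 0.0589). It passed when normalised by DESeq2 size factors (adjusted p = 0.0496), with DESeq2's own test (0.0174) and when only the second set was fitted (2.4e-04). HRK was at 12.1 and 12.1 CPM, below the 4 controls at 13.3 to 15.7 CPM, without passing (-0.30 ± 0.12, adjusted p = 0.177). PMAIP1 was at 107.7 and 127.4 CPM and MCL1 at 337.2 and 352.2 CPM, each above the controls, and did not pass (0.47 ± 0.21, adjusted p = 0.26, and 0.18 ± 0.08, adjusted p = 0.236). When only the second set was fitted, in a fit that called 2981 genes against 866, PMAIP1 (adjusted p = 0.0027), HRK (0.0196) and MCL1 (0.031) passed as well, and PMAIP1 also passed without the low-count filter (0.00883). In starved cells HDGF depletion called 0 members with 0.659% of genes called, and 0 members reached an unadjusted p under 0.05. BMF there had 9.03 and 10.6 CPM in HDGF-depleted libraries, against 12.3, 11.3, 13.1 and 11.9 CPM in starved controls (-0.31 ± 0.20, adjusted p = 0.622).

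ZNF655 depletion raised BAX and lowered MCL1, 1 member in each direction with 11.5% of genes called (6.57% higher and 4.88% lower) and 6 members at an unadjusted p under 0.05. BAX had 84.0 and 84.9 CPM in ZNF655-depleted libraries, above the controls at 64.0 to 67.2 CPM (0.36 ± 0.10, adjusted p = 0.019). MCL1 had 240.6 and 265.8 CPM in ZNF655-depleted libraries, against 283.0, 320.6, 316.0 and 294.5 CPM in controls (-0.26 ± 0.08, adjusted p = 0.0355). The higher of the depleted MCL1 libraries came close to the lowest control. BCL2L1 had 28.9 and 25.2 CPM in ZNF655-depleted libraries, against 21.3 to 24.7 CPM in controls, and BBC3 had 18.9 and 21.3 CPM, against 13.6 to 18.3 CPM. Both lay above every control and missed the threshold (0.25 ± 0.09, adjusted p = 0.0865, and 0.33 ± 0.13, adjusted p = 0.11). Both passed with the replicate block over all libraries (adjusted p = 0.0363 and 0.0382) and when only the second set was fitted (0.0203 and 0.0269). Those fits called 4028 and 5513 genes, against 2208 in the full fit. HRK had 11.5 and 12.7 CPM in ZNF655-depleted libraries, below the controls (-0.31 ± 0.12, adjusted p = 0.0999). HRK passed with DESeq2's test (0.0423, 2669 genes called) and when only the second set was fitted (0.0105). PMAIP1 overlapped its controls and did not pass (-0.37 ± 0.22, adjusted p = 0.321). It passed without the low-count filter (0.0450, 1893 of 39828 genes called), with the block over all libraries (0.0228) and when only the second set was fitted (0.0110). The BAX call was lost without either ZNF655 library (adjusted p = 0.186 and 0.187), and that of MCL1 without ZNF655 library 3 (0.315), control 3b (0.0967) or control 4a (0.0854). Against the controls labelled for ZMYND8, BAX differed by 0.19 (adjusted p = 0.323) and MCL1 by 0.14 with the opposite sign.

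ZMYND8 depletion lowered HRK, the only member called of 10, with 0.747% of genes called (0.446% higher and 0.301% lower) and 2 members at an unadjusted p under 0.05. HRK had 12.5 and 12.3 CPM in ZMYND8-depleted libraries, against 19.7 and 20.1 CPM in their controls. The pairs were tight and far apart, and HRK stood at 0.623 of its control level (-0.68 ± 0.14, adjusted p = 0.0114). MCL1 had 277.7 and 265.8 CPM in ZMYND8-depleted libraries, against 233.4 and 225.1 CPM in controls, and did not pass (0.25 ± 0.09, adjusted p = 0.302). BCL2L11, at 36.1 and 41.0 CPM in ZMYND8-depleted libraries and 31.2 and 30.1 CPM in controls, did not pass either (0.33 ± 0.17, adjusted p = 0.577). With any one of the 4 libraries left out, the HRK call was lost (adjusted p 0.0733 to 0.162).

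**Figure D4:**
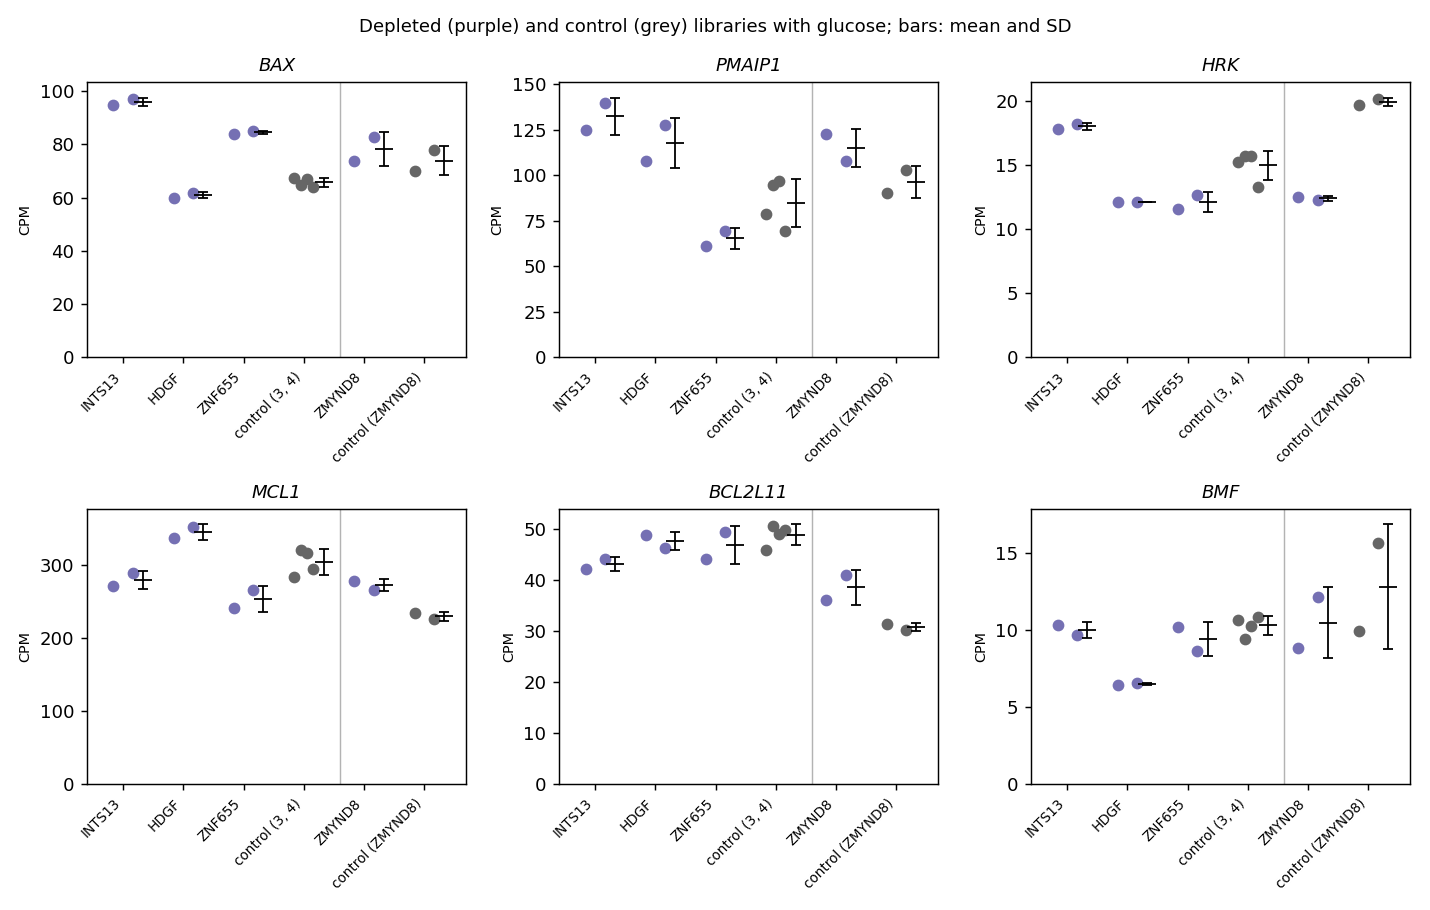
CPM of BAX, PMAIP1, HRK, MCL1, BCL2L11 and BMF per library (points) with the group mean and SD (bars) in depleted (purple) and control (grey) fed cells, for INTS13, HDGF and ZNF655 with their shared controls and for ZMYND8 with its own. BAX in INTS13-depleted cells, 94.8 and 97.0 CPM, lies above the controls, 64.0 to 67.2 CPM, and HRK in ZMYND8-depleted cells, 12.5 and 12.3 CPM, lies below its controls, 19.7 and 20.1 CPM.

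In the first set HRK was called more often than any other member, and it fell with depletion of ZNF608 and of ZEB1. ZNF608 depletion lowered 1 member and raised 0, with 2.76% of genes called (1.08% higher and 1.68% lower). HRK had 11.2 and 11.2 CPM in ZNF608-depleted libraries, against 16.1, 20.9 and 21.9 CPM in controls. Both libraries lay below the lowest control, and HRK stood at 0.571 of its control level (-0.81 ± 0.12, adjusted p = 0.000324). This call held with each of 5 libraries left out and was lost when only the first set was fitted without the replicate number (adjusted p = 0.206), a fit that called 10 genes, but not when that number was added as a block (-0.79, adjusted p = 0.0191; 333 genes called).

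ZEB1 depletion raised 1 member and lowered 1, with 3.77% of genes called (1.78% higher and 1.99% lower) and 4 members at an unadjusted p under 0.05. BAX had 109.5 and 80.7 CPM in ZEB1-depleted libraries, against 65.7, 58.7 and 58.2 CPM in controls (0.64 ± 0.11, adjusted p = 0.000654). HRK had 11.8 and 15.8 CPM in ZEB1-depleted libraries, against 16.1, 20.9 and 21.9 CPM in controls (-0.50 ± 0.12, adjusted p = 0.0197). Neither gene overlapped its controls, but the ZEB1 libraries lay far apart from each other, number 1 farther from the pooled controls for both genes. Within replicate numbers, HRK had 11.8 against 16.1 CPM in number 1 and 15.8 against 20.9 and 21.9 CPM in number 2, similar ratios. BAX had 109.5 against 65.7 CPM in number 1 and 80.7 against 58.7 and 58.2 CPM in number 2. BBC3 had 24.3 and 19.4 CPM in ZEB1-depleted libraries, against 15.9, 15.4 and 16.6 CPM in controls, and missed the threshold (0.45 ± 0.14, adjusted p = 0.064). BBC3 passed with the replicate number as a block over all libraries (0.40, adjusted p = 0.0230, 2630 genes called). It also passed with DESeq2's test (adjusted p = 0.0264, 1298 genes called) and without control 1a (adjusted p = 0.0388, 4080 genes called). The full fit called 726 genes, so these passes came with more calls over all genes. BBC3 missed with the block on the first set alone (0.0931). Without ZEB1 library 2, which left 1 depleted library, BBC3 differed by 0.60. Without ZEB1 library 1, BAX differed by 0.41 (adjusted p = 0.126) and HRK by -0.32 (adjusted p = 0.581), and the HRK call was also lost without control 1b (0.0884) or 2 (0.127). When only the first set was fitted, neither gene passed (adjusted p = 0.221 for BAX and 0.489 for HRK; 28 genes called). With the replicate number as a block in that fit, BAX passed (0.62, adjusted p = 0.0231) and HRK did not (-0.49, adjusted p = 0.114; 322 genes called). Ribosomal protein genes took 15.8% of reads in ZEB1 library 1, the most of all libraries. Its TMM factor, 0.780, was the lowest of all, against 0.980 in ZEB1 library 2 and 0.869, 0.975 and 0.974 in controls 1a, 1b and 2. A lower factor gives a higher CPM for the same share of counts. The part of either in these values was not tested.

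No member was called with depletion of TSPYL2 (2.22% of genes called, 1 member at an unadjusted p under 0.05), ZNF609 (0.571%, 2 members) or ZNF687 (0.254%, 2 members). HRK was lower in both ZNF687-depleted libraries, 13.7 and 13.9 CPM, than in the 3 controls, and just missed the threshold (-0.51 ± 0.12, adjusted p = 0.0748); with ZNF609 depletion it had 16.2 and 13.7 CPM, the first above the lowest control of 16.1 CPM (-0.39 ± 0.12, adjusted p = 0.169). TSPYL2-depleted libraries had 18.4 and 16.5 CPM of HRK, within the range of the controls. Libraries of the first set with the same replicate number deviated together, and with that number as a block HRK passed for ZNF687 (-0.49, adjusted p = 0.0305), in a fit that called 225 genes, against 49 without the block. It also passed with DESeq2's test (0.00422) and without control 1a (0.00895). With the same block, PMAIP1 (-0.55, adjusted p = 0.00361) and BCL2L11 (0.45, adjusted p = 0.00888) passed for TSPYL2, in a fit that called 3533 genes, against 428 without the block. The block fitted on the first set alone called none of these 3, with adjusted p = 0.379 for HRK, 0.0536 for PMAIP1 and 0.114 for BCL2L11. BCL2L11, which FOXO3 can induce, had 25.0 and 35.8 CPM in TSPYL2-depleted libraries, against 19.9, 25.4 and 23.2 CPM in controls.

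The libraries numbered 1 in the first set stand apart in their ribosomal protein reads, and the set was also fitted without them, a choice made after seeing the data. This left 1 library for each depletion and controls 1b and 2, and the lone library was assumed to vary like the other groups. HRK then passed in 5 of 5 depletions, lower by 0.93 for ZNF608, 0.63 for ZNF609, 0.61 for ZNF687, 0.43 for ZEB1 and 0.39 for TSPYL2 on the log2 scale (adjusted p 2.84e-06 to 0.0186). This fit of 19828 genes called 1809 for ZNF608 (532 with the number 1 libraries), 2817 for ZNF609 (110), 432 for ZNF687 (49), 681 for ZEB1 (726) and 3397 for TSPYL2 (428). The 5 differences share the same 2 controls, which had 20.9 and 21.9 CPM of HRK, against 16.1 CPM in control 1a, the control left out. Among the depleted libraries left out, those of TSPYL2 (18.4 CPM) and ZNF609 (16.2 CPM) were not below control 1a. Those of ZNF608, ZEB1 and ZNF687 were below it. For TSPYL2 the replicate numbers therefore differed in direction. BAX stayed called for ZEB1 (0.47, adjusted p = 0.00248). PMAIP1 (-0.53, adjusted p = 0.0116) and BCL2L11 (0.55, adjusted p = 0.000621) passed for TSPYL2. BMF passed for ZNF608 (-0.56, adjusted p = 0.037) and ZNF609 (-0.67, adjusted p = 0.0105), and BAK1 (0.34, adjusted p = 0.0167) and MCL1 (0.31, adjusted p = 0.00669) passed for ZNF609.

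PMAIP1 differed between the replicate numbers of the first set. Its libraries numbered 1 held 102.2 to 197.3 CPM and those numbered 2 held 74.4 to 127.8 CPM, and the number 1 library was higher in 6 of 6 groups. TSPYL2-depleted libraries had 102.2 and 74.4 CPM of PMAIP1 and ZNF687-depleted ones 197.3 and 127.8 CPM, against 149.4, 104.5 and 108.9 CPM in controls. BBC3 was higher in number 1 in 5 of 6 groups, and MCL1 in 1 of 6 and BIK in 0 of 6. BAX and BAK1 were higher in number 1 in 3 of 6 groups each. These libraries are also those with the larger share of ribosomal protein reads, and which of the 2 the PMAIP1 level goes with cannot be told apart.

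**Figure D5:**
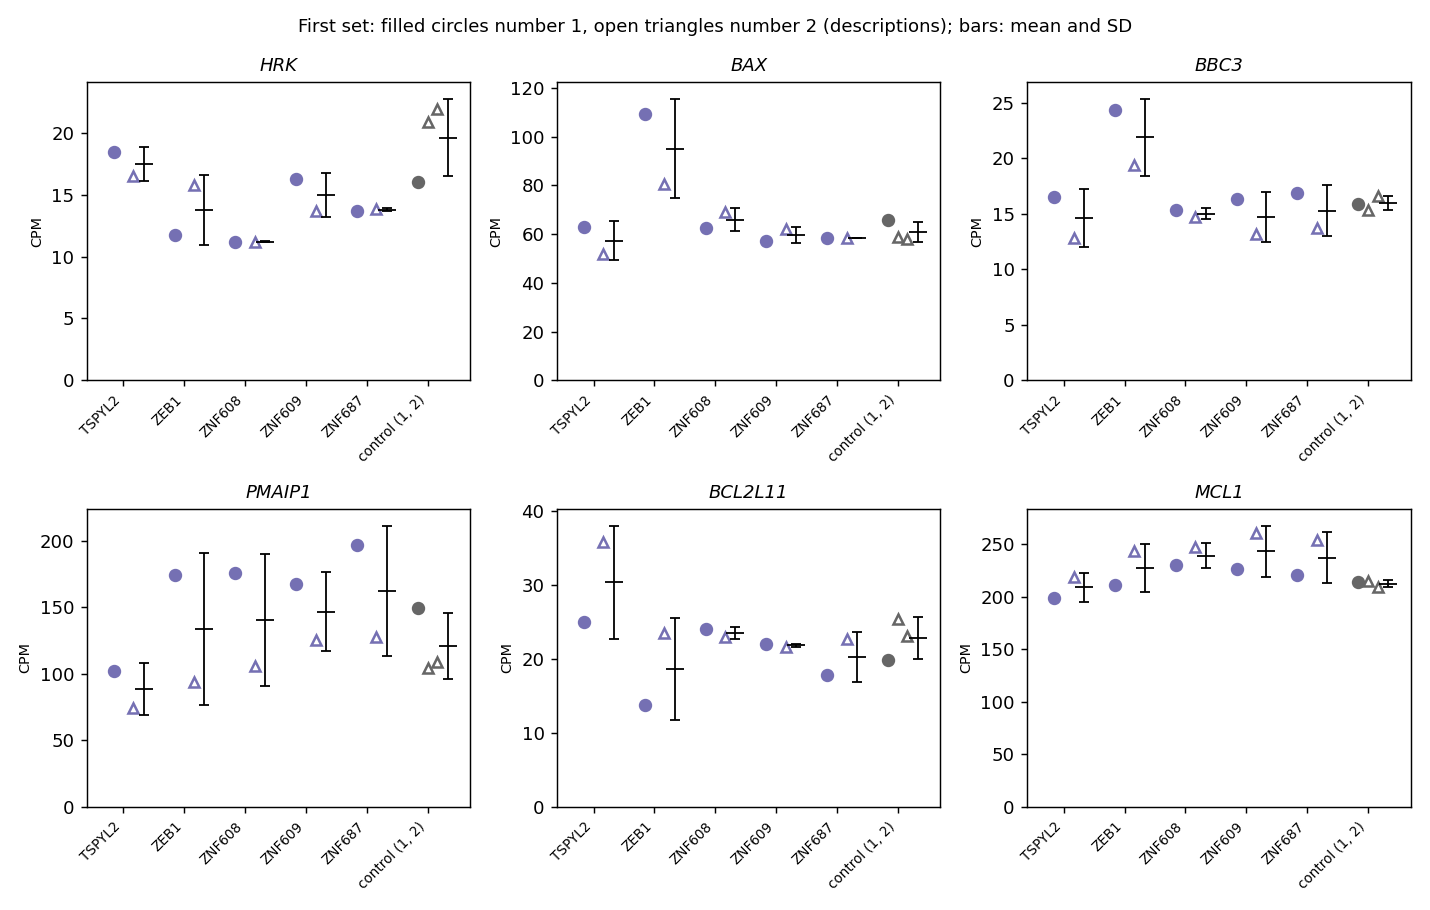
CPM of HRK, BAX, BBC3, PMAIP1, BCL2L11 and MCL1 per library in the first set, for the 5 depletions and, at the right, the controls. Filled circles carry number 1 and open triangles number 2. HRK in ZNF608-depleted cells, 11.2 CPM in both libraries, lies below the controls, 16.1 to 21.9 CPM, and the number 1 libraries of PMAIP1 lie above their number 2 partners in 6 of 6 groups.

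Other genes of the pathway were read from 3 lists, whose calls are to be held against the same shares of all genes. Of 14 relatives of the family, 10 could be tested, and the BCL2A1, BCL2L10, BCL2L14 and BNIP5 genes were too low. In starved control cells 1 relative rose and 1 fell of 10: BCL2L2 (BCL-W), a pro-survival member, rose by 0.45 on the log2 scale (adjusted p = 0.000337), and BCL2L12 fell by 0.32 and was lost without fed or starved control 3a. With ZEB1 depletion BAD, a BH3-only gene, rose by 0.73 (adjusted p = 0.0462) and BCL2 fell by 0.66 (adjusted p = 0.0459), both lost without ZEB1 library 1 or control 1b or 2. With ZNF608 depletion BCL2L2 fell by 0.51 and was lost without ZNF608 library 1, and BNIP3L fell by 0.43 and was lost without ZNF608 library 2 or control 1a or 2. BCL2L13 fell by 0.26 with ZNF655 depletion and by 0.29 with TSPYL2 depletion, and was lost without either ZNF655 library and in 4 of 5 cases for TSPYL2. No relative was called in the other depletions or in the starvation of depleted cells.

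All 24 genes acting at or after the mitochondrial step could be tested. With INTS13 depletion 1 rose (XIAP, a caspase inhibitor, by 0.52) and 5 fell. DFFA, the inhibitor of the caspase-activated nuclease, fell by 0.96 ± 0.12 (adjusted p = 2.94e-06) and BIRC5 (survivin) fell by 0.56 (adjusted p = 3.76e-05), both with each library left out. ENDOG, a mitochondrial nuclease, fell by 0.59, a call that was lost in 6 of 6 cases. DFFA also fell by 0.53 with HDGF depletion (adjusted p = 0.0058; the only gene called of 24, and lost without either HDGF library) and by 0.65 with ZNF655 depletion, which share the same controls. ZNF655 depletion raised 1 and lowered 4, and among these XIAP, higher by 0.32, and VDAC2, lower by 0.30, lost their calls in 4 and 3 of 6 cases. In starved control cells 0 rose and 4 fell, among them VDAC1, a channel of the outer mitochondrial membrane, by 0.45, BIRC5 by 0.26 and CASP6 by 0.28, and of these 3 only CASP6 was lost without single libraries. Of the 24 genes, 1 each fell with depletion of TSPYL2 (CASP6, by 0.51, lost without either TSPYL2 library), ZEB1 (XIAP, by 0.52, lost without ZEB1 library 1) and ZNF609 (VDAC1, by 0.67, lost without ZNF609 library 1). ZNF608 depletion also lowered 1 of the 24 and raised 0, and that gene is not reported here. In starved cells INTS13 depletion raised XIAP by 0.49, lost without library 3, and lowered DFFA by 0.61, lost without either depleted library.

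Of 27 regulators of the family, 26 could be tested, TP63 being too low. With INTS13 depletion 4 rose and 2 fell: MDM2, a p53 target and inhibitor, rose by 0.59 (adjusted p = 7.33e-05), PPM1D, another p53 target, rose by 0.39 and was lost without INTS13 library 4, and JUN, lower by 0.78, and PIM1, lower by 0.63, were called with each library left out. In starved cells INTS13 depletion raised 5 and lowered 0, among them MDM2 by 0.69, with each library left out, and TRIB3 by 0.57, FBXW7 by 0.41 and PPM1D by 0.33, each lost without depleted library 3 or 4, PPM1D also without starved control 3a. With HDGF depletion 1 rose and 3 fell: MDM2 fell by 0.58 (adjusted p = 0.000436) and E2F1 by 0.54 with each library left out, whereas JUN, lower by 0.48, and YWHAB, higher by 0.29, were lost in 3 and 5 of 6 cases. With ZNF655 depletion 3 rose and 3 fell: JUN fell by 1.24 (adjusted p = 2.77e-07) and YWHAZ by 0.39 with each library left out, TP73 rose by 0.76 and was lost without either ZNF655 library, and E2F1 fell by 0.30 and was lost without ZNF655 library 3. JUN, a target of JNK, fell by 0.55 in starved control cells, where HIF1A fell by 0.49, YWHAZ by 0.37 and MDM4, a partner of MDM2, rose by 0.48, each called with every library left out. There 2 regulators rose and 3 fell, and ATF4 was the other that rose, by 0.31 (adjusted p = 0.0383), a call lost in 8 of 8 cases and with DESeq2 size factors. XIAP with INTS13 depletion and ATF4 with starvation lay outside the 4 largest changes of their lists and were named after their values were seen.

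With ZEB1 depletion 0 regulators rose and 3 fell, DYNLL2 by 0.61, JUN by 0.54 and MDM4 by 0.51, each lost without ZEB1 library 1 or control 1b or 2. With ZNF608 depletion MDM4 fell by 0.81 with each library left out, JUN fell by 0.47 and E2F1 rose by 0.34, the last 2 lost in 4 of 5 cases. AKT1 fell by 0.35 with ZNF687 depletion and was lost in 5 of 5 cases. In starved HDGF-depleted cells MDM4 and MDM2 were higher, by 0.52 and 0.44, and HIF1A lower by 0.35, against fed ones, and these were lost in 4, 3 and 4 of 4 cases. E2F1 fell by 0.39 with HDGF depletion in starved cells and was lost without either depleted library. No regulator was called with depletion of ZMYND8, TSPYL2 or ZNF609 or with starvation of INTS13-depleted cells.

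HRK was the member called most often, and the genes whose levels ran most like it were sought over the 35 libraries, each as its difference from the mean of the controls of its set, among 11514 genes with mean log2 CPM no lower than 2. The 5 nearest were SLC6A9 (Pearson r = 0.940), a glycine transporter gene, STC2 (0.940), which encodes stanniocalcin, SPG11 (0.934), ZNF623 (0.933) and JDP2 (0.931). Among the members, HRK ran opposite to BAK1 (r = -0.836) and MCL1 (r = -0.782), and BBC3 opposite to MCL1 (r = -0.783). These are descriptions across libraries of the same sets, which share controls and the starvation contrast.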

How the data were processed

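The authors deposited 1 table of raw read counts per gene for 35 libraries, described as taken before removal of duplicates, with the summed exon length of each gene. Total RNA was depleted of ribosomal RNA and made into stranded libraries, per the labels' protocols. FastQC, cutadapt, STAR and hg38 are named, without versions, per the submitters' processing notes, and the counting tool, annotation release and strand setting are not given in the sources used here. From the deposited counts, edgeR 4.0.16 (R 4.3.3) was fitted once with 15 group means, TMM normalization and its default low-count filter by group (19275 of 60665 genes; 20 residual degrees of freedom; median BCV, the square root of the dispersion, 0.123). Quasi-likelihood p-values were adjusted by Benjamini-Hochberg over all 19275 genes, and adjusted p under 0.05 was called. Alternatives were DESeq2 1.42.0 size factors or its Wald test, no low-count filter, a replicate block, each set alone, other controls, and each library left out. CPM used TMM library sizes, and the gene-like-gene search a prior count of 2. Fits were tested on simulated data. The members, lists and tests were chosen with earlier results of these data known. List genes named were the 4 called genes with the largest fold per list and comparison, apart from those said to be exceptions. Some list genes are not reported here.

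In the first set the number 1 minus number 2 difference correlated above 0.1 over 11515 genes for 15 of 15 group pairs (median r 0.742), so the numbers paired those libraries; first-set controls 1a, 1b and 2 of the titles are 1, 2a and 2b in the descriptions, whose numbers were used. In the second set 6 of 21 pairs did (median r 0.0254), and its numbers were not taken as pairs. The main fit held no block, so the differences between paired first-set libraries counted as spread in it. Starved ZMYND8 libraries were not analysed here.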

Additional observations from a re-analysis of the deposited data

How the results depend on the processing

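Of the 20 member calls, 6 held with each library left out in turn, 12 under every other alternative and 5 under all. With 1 library left out, the number of members called ranged from 1 to 2 for INTS13 depletion (2 in the full fit), 0 to 0 for HDGF (0), 0 to 3 for ZNF655 (2), 0 to 0 for ZMYND8 (1), 0 to 1 for TSPYL2, ZNF609 and ZNF687 (0 each), 0 to 5 for ZEB1 (2) and 1 to 1 for ZNF608 (1). It ranged from 3 to 5 for starvation of control cells (5), 0 to 2 for that of INTS13-depleted cells (2), 1 to 2 for that of HDGF-depleted cells (3), 0 to 1 for INTS13 depletion in starved cells (2) and 0 to 0 for HDGF depletion in starved cells and both interactions (0). The calls over all genes also moved with 1 library left out, so these ranges are not particular to the members. For ZEB1 depletion, the fit without control 1a called 4080 genes and 4 members. The fit without control 2 called 242 genes and 1 member, against 726 genes in the full fit. DESeq2 size factors gave 1 for INTS13 and 1 for HDGF, with 2489 and 881 of all genes called (2459 and 866 in the full fit). Without the filter there were 2 for HDGF, 1 for ZNF655 and 1 for TSPYL2. That fit called 717, 1893 and 609 of 39828 genes (866, 2208 and 428 of 19275 in the full fit). DESeq2's Wald test gave 1 each for HDGF, ZNF609 and ZNF687, with 1149 (866), 317 (110) and 205 (49) genes called. The replicate block over all libraries gave 2 for HDGF, 5 for ZNF655, 2 for TSPYL2, 1 for ZNF687 and 5 for starvation of HDGF-depleted cells. In the same order, that fit called 1786 (866 in the full fit), 4028 (2208), 3533 (428), 225 (49) and 1807 (683) genes. The comparison's own set alone gave 0 for ZEB1, 0 for ZNF608, 4 for HDGF, 6 for ZNF655, 4 for ZMYND8, 4 and 7 for starvation of INTS13- and HDGF-depleted cells and 1 for HDGF in starved cells. These fits also moved the calls over all genes: 28 for ZEB1 (726 in the full fit), 10 for ZNF608 (532), 2981 for HDGF (866), 5513 for ZNF655 (2208), 1560 for ZMYND8 (144), 2371 (255) and 3170 (683) for starvation of INTS13- and HDGF-depleted cells and 1460 (127) for HDGF in starved cells. Adding the replicate block there gave 1 for ZEB1, 4 for INTS13, 4 for HDGF, 6 for ZNF655, 5 for ZMYND8, 4 and 7 for starvation of INTS13- and HDGF-depleted cells and 1 for HDGF in starved cells. It kept 1 for ZNF608 and 0 for TSPYL2 and ZNF687. Over all genes, these block fits called 322 for ZEB1, 5530 for INTS13, 2879 for HDGF, 5379 for ZNF655 and 2357 for ZMYND8. They called 2267 and 3069 for starvation of INTS13- and HDGF-depleted cells and 1366 for HDGF in starved cells. For ZNF608, TSPYL2 and ZNF687 they called 333, 50 and 7. Outside the first set, libraries shared only a replicate number. The next 2 alternatives were chosen after seeing the data. Without the number 1 libraries of the first set there were 3 for TSPYL2, 2 for ZNF608, 4 for ZNF609 and 1 for ZNF687. Against the controls labelled for ZMYND8 there were 4 for HDGF, with 2533 genes called (866 in the full fit). The direction turned for MCL1 with INTS13 (0.29, against -0.12 with the second-set controls) and ZNF655 (0.14, against -0.26) and for BCL2L11 with HDGF (0.63, against -0.04) and ZNF655 (0.61, against -0.06). The 2 control groups themselves differed in these genes. MCL1 had 229.3 CPM in the controls labelled for ZMYND8 and 303.5 CPM in those of the second set, and BCL2L11 had 30.7 and 48.8 CPM. Beside the calls already described as lost, PMAIP1 with INTS13 depletion missed the threshold with DESeq2 size factors (adjusted p = 0.0543), and without the filter BAX (0.0627) and MCL1 (0.248) missed it for ZNF655, BAK1 for starvation of control cells (0.172) and MCL1 for that of HDGF-depleted cells (0.268). Of 67 calls of list genes, 23 held with each library left out; 24 were lost without the filter, 15 with the own set alone, 8 with its block, 5 with DESeq2 size factors, 0 with DESeq2's test or the block over all libraries, and 13 of 29 against the controls labelled for ZMYND8. The causes were not tested. Members with few reads, BIK above all, limit what this depth can show. Groups held few libraries, and most member calls were lost when some library was left out. Whether the first explains the second was not tested. A lost call did not always mean a changed estimate. HRK with ZMYND8 depletion was lost in 4 of 4 cases at -0.72 to -0.68, whereas HRK with ZEB1 depletion ranged from -0.74 to -0.32.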
